A study of Mus musculus with 9 samples.

Results

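Annexins and S100 proteins are calcium-binding proteins of the cell periphery, and 10 of their genes were followed here among the 55401 genes of the count table of mouse livers. They were taken by gene symbol and comprised 4 annexins (Anxa1, Anxa2, Anxa3 and Anxa5) and 6 S100 genes (S100a4, S100a6, S100a10, S100a11, S100a13 and S100a16). All 10 symbols were found, each with a single row. Annexins bind negatively charged phospholipids when calcium rises and link membranes to the actin cortex, vesicles and repair sites. S100 proteins are small EF-hand proteins that form dimers, and several of them grip the free end of an annexin. The best known complexes join S100a10 to Anxa2 and S100a11 to Anxa1. In liver these genes are described mainly in ductal, stromal and immune cells and in tumors.

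RNA was sequenced from the liver of 9 female mice in 3 groups of 3. All mice were obtained at 6 weeks of age, healthy ones included. In the tumor groups, sleeping beauty transposon plasmids were forced into hepatocytes by a rapid tail vein injection, a model named RAS/AKT after its oncogenes, myristoylated AKT and activated NRAS. An activated β-catenin plasmid is also listed in the protocol, for another tumor model of the study. At week 1 after the oncogenes these mice received the AAV8 vector, empty in the untreated hepatocellular carcinoma (HCC) group and carrying miR-22 in the miR-22-treated HCC group, and livers were taken at week 5, which is 4 weeks after the vector. Healthy livers came from wild-type mice that had no treatment, neither oncogenes nor vector, and the time at which they were taken is not given. The strain is FVB/N in the protocols and C57BL/6 in the strain field of the labels, and the vector dose differs between the labels and the methods, so neither can be settled here. The oncogene plasmids reach only part of the hepatocytes, miR-22 was driven by a CMV promoter, and the level of miR-22 is not analysed here. Nothing states whether animals were pooled, and in whole liver fewer cells of a type and less RNA per cell cannot be told apart.

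Healthy libraries held 18258660 to 20964551 counts, untreated ones 18293676 to 23908392 and treated ones 16664659 to 20459853. Levels are given as CPM, the counts per 1000000 counts of a library after TMM scaling, a correction for the unequal make-up of libraries. The TMM factor of the healthy group was 0.865 to 0.872, that of the untreated group 1.12 to 1.22 and that of the treated group 0.942 to 1.03. Of all genes, 15717 passed the filter on low counts and were tested with edgeR's quasi-likelihood test. A gene was called when its Benjamini-Hochberg adjusted p over all tested genes was under 0.05 and its fold change over 1.5. All 10 annexin and S100 genes passed the filter, but S100a4 and S100a6 did so only through the HCC livers, since 8 of the 10 were above the filter level of 0.545 CPM in all 3 healthy livers. The labelled tissue matched its markers, as the summed level of 8 hepatocyte genes was 128000 to 133000 CPM in healthy livers, 50000 to 63100 CPM in untreated HCC and 76200 to 92900 CPM in miR-22-treated HCC. Most of that sum was Alb, at 101000, 45900 and 67200 CPM on average in healthy livers, untreated HCC and miR-22-treated HCC.

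The therapeutic miRNA recognizes transcripts mainly through its seed, bases 2 to 8, which are in capitals in the mature sequence of RefSeq (GRCm38.p6, chr11:75463772-75463793, plus strand). It is shown with the only matching 3′ UTR site found among the 10 genes, which lies in S100a16 (GRCm39, chr3:90450268-90450289, plus strand) and has the 7 bases that pair with the seed in capitals.
mmu-miR-22-3p: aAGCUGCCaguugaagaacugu
S100a16 site: tcctgactgtGGCAGCTgtggt

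The site started at base 385 of the S100a16 3′ UTR. The letters searched were GGCAGCT, on the transcript strand of the GENCODE vM39 canonical transcript, and 1 of the 10 genes held them, beside 14% of 20854 protein-coding genes. A second form, GCAGCTA, was in none of the 10. The 3′ UTRs searched were 92 to 2799 bases long, against a median of 1083 bases over all genes. These matches describe the letters alone, and the genes without a match include Anxa2 and S100a11, which were lower with miR-22.

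Promoter stretches are shown where an AP-1 motif was found, which was in Anxa2 and S100a11, whose rises in HCC were among the largest, and in S100a16, which moved little. RefSeq promoters (GRCm38.p6) were at hand for 8 of the 10 genes, with 2 for S100a16 and so 9 in all, and none for Anxa3 and S100a10. The 250 bases before each start were searched on both strands. The AP-1 motif TGANTCA, which reads the same on both strands, was in 3 of the 9 promoters, beside 6.75% of 32851 mouse promoters. The 4 matches are given with their surroundings, motif in capitals.
Anxa2, chr9:69453573-69453609, plus strand: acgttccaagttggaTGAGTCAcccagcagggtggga
S100a11, chr3:93520345-93520381, plus strand: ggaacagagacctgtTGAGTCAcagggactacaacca
S100a11, chr3:93520443-93520479, plus strand: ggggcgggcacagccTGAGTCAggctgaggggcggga
S100a16, chr3:90540939-90540975, plus strand: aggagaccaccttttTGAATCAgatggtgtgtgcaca

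The Anxa2 motif ended 89 bases before the start, those of S100a11 130 and 32 bases before it, and that of S100a16 186 bases before it. No AP-1 motif was in the window of Anxa5, whose rise in HCC was close to that of Anxa2. The TEAD motif GGAATG was in 1 of the 9 promoters, that of Anxa1, and in 12.6% of all. The hypoxia response core ACGTG was in 3 of the 9, those of Anxa2, Anxa5 and S100a11, and in 16.6% of all. The STAT motif TTCNNNGAA was in none of the 9 and in 7.02% of all. TATAAA, searched on the gene's strand in the last 50 bases, was in 3 of the 9, those of Anxa1, Anxa2 and S100a4, and in 2.63% of all. No binding was measured in these livers, so the matches are a description of the letters.

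The first comparison asks how tumor livers differ from healthy ones. Of the 8 genes that were above the filter level in all healthy livers, 6 rose in untreated HCC (Anxa1, Anxa2, Anxa3, Anxa5, S100a10 and S100a11), S100a13 fell and S100a16 was not called. Among all tested genes, 22.7% were called higher and 18.1% were called lower. The 10 genes were chosen with earlier results of these data known, so how they compare with all genes is a description. S100a4 and S100a6 were called higher too, but they entered the test only through the HCC livers. Such a gene is more likely to differ, so their calls are a description. The median log2 fold change was 1.9 over the 8 genes, beside 0.012 over all tested genes, and the 10 genes ranged from −0.76 to 5.49. The values over all tested genes were not restricted to genes above the filter level in healthy livers. With glmTreat, edgeR's test against a 1.5-fold change, the fall of S100a13 was not called (adjusted p = 0.14). The untreated livers were all above the healthy ones for 7 of the 8 genes, which was so for 33.9% of all tested genes. Together the 10 genes took 0.0133% ± 0.00117 (SD, n = 3) of the counts in healthy livers, 0.111% ± 0.0167 in untreated HCC and 0.0671% ± 0.0144 in miR-22-treated HCC.

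**Figure D1:**
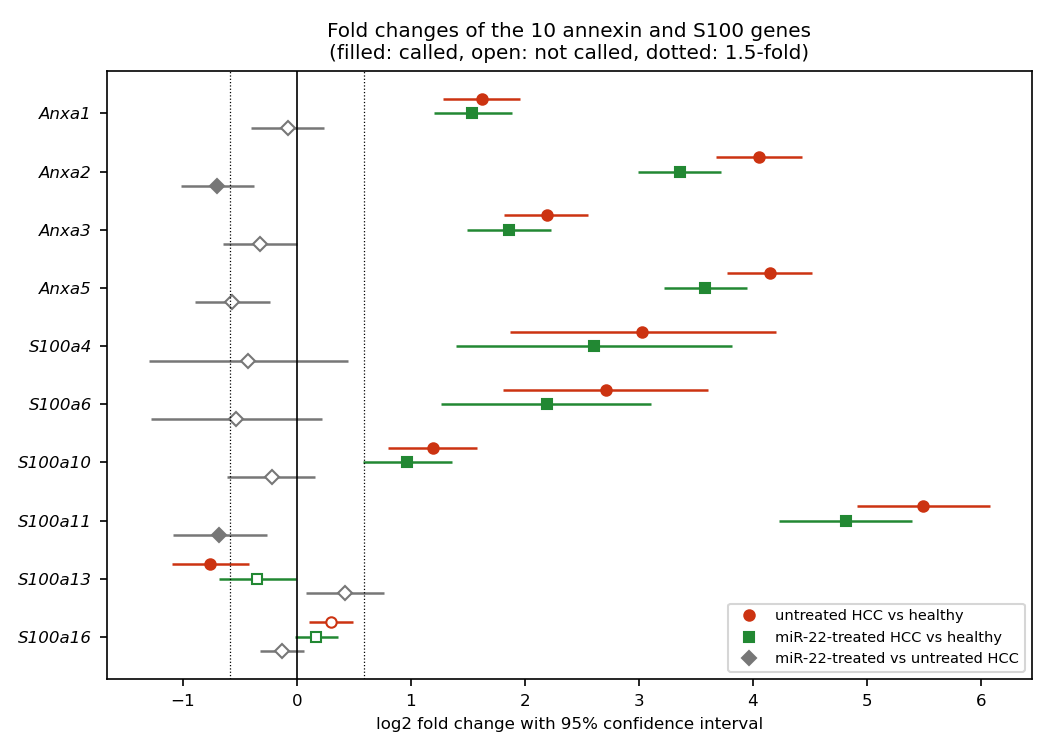
Log2 fold changes of the 10 genes (horizontal axis, with 95% confidence intervals) in untreated HCC against healthy livers (circles), miR-22-treated HCC against healthy livers (squares) and miR-22-treated against untreated HCC (diamonds), from edgeR on 3 livers per group, with filled symbols for called genes. S100a11 has the highest values in both comparisons with healthy livers, 5.49 and 4.82, and the diamonds lie between −0.7 and 0.42.

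Anxa2, which binds the membrane as a complex with S100a10 and is known as a cell surface site for plasminogen activation, had 12.8, 12.7 and 13.7 CPM in the 3 healthy livers. The untreated HCC livers had 257, 203 and 193 CPM, and the miR-22-treated ones had 114, 120 and 168 CPM. The groups did not overlap, and every tumor liver was far above the healthy ones. The rise in untreated HCC was 16.6-fold (log2 fold change 4.05 ± 0.171, SE, edgeR quasi-likelihood adjusted p = 6.7e-09).

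Anxa5, the phosphatidylserine-binding annexin used as a probe for dying cells, had 24.7, 26.7 and 23.7 CPM in healthy livers and 521, 405 and 408 CPM in untreated HCC. With miR-22 it had 245, 283 and 372 CPM, below every untreated liver and above every healthy liver. Its rise in untreated HCC was 17.8-fold (log2 fold change 4.15 ± 0.173, SE, edgeR adjusted p = 6.4e-09). Exons of Anxa5 share 353 bases with 1810062G17Rik on the opposite strand, which had 0 to 6 counts in each library.

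Anxa1, a ligand of formyl peptide receptors that restrains phospholipase and neutrophil entry, had 4.84, 6.55 and 7.53 CPM in healthy livers. Untreated HCC had 21.5, 16.8 and 20.1 CPM, and miR-22-treated HCC 17.7, 18.4 and 19.3 CPM. The tumor groups overlapped each other and both lay above the healthy livers. The rise in untreated HCC was 3.08-fold (log2 fold change 1.62 ± 0.158, SE, edgeR adjusted p = 2.9e-06).

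Anxa3, an annexin also found in neutrophil granules, had 4.09, 3.65 and 2.58 CPM in healthy livers, 16.8, 15.5 and 14.5 CPM in untreated HCC and 11.8, 12.1 and 13.4 CPM in miR-22-treated HCC. The 3 groups did not overlap, with treated livers in between. The rise in untreated HCC was 4.55-fold (log2 fold change 2.19 ± 0.168, SE, edgeR adjusted p = 4.3e-07).

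S100a11, the partner of Anxa1, was low in healthy livers, with 1.19, 1.45 and 1.7 CPM. It reached 80.3, 62.2 and 55.4 CPM in untreated HCC and 31.1, 36.5 and 55.8 CPM with miR-22. All 6 tumor livers were far above the healthy ones, and treated replicate 4 was at the level of the lowest untreated liver. The 45.1-fold rise in untreated HCC was the largest of the 10 genes (log2 fold change 5.49 ± 0.27, SE, edgeR adjusted p = 1.9e-08).

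S100a10, the partner of Anxa2, was already 55.6, 65.5 and 81.3 CPM in healthy livers. It was 196, 114 and 152 CPM in untreated HCC and 121, 131 and 144 CPM in miR-22-treated HCC, where all 3 livers lay within the spread of the untreated ones. The rise in untreated HCC was 2.28-fold (log2 fold change 1.19 ± 0.18, SE, edgeR adjusted p = 0.00011), smaller than that of Anxa2.

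S100a6, also called calcyclin for its expression in cycling cells, had 0.943, 0.441 and 0.879 CPM in healthy livers, which is 7 to 16 counts. Untreated HCC had 5.3, 5.64 and 4.11 CPM, a 6.56-fold rise (log2 fold change 2.71 ± 0.415, SE, edgeR adjusted p = 0.00012). The miR-22-treated livers had 2.63, 1.98 and 5.66 CPM, and treated replicate 4 was above all 3 untreated livers.

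S100a4, a binder of non-muscle myosin that is used as a marker of fibroblasts and motile cells, had only 4, 2 and 1 counts in healthy livers. It had 19, 32 and 34 counts in untreated HCC and 13, 12 and 24 counts in miR-22-treated HCC. Taken over the summed counts, the level was 8.62 times that of healthy livers in untreated HCC, with a 95% counting interval of 4 to 22.1 that covers counting error only. The edgeR log2 fold change was 3.03 ± 0.536 (SE, adjusted p = 0.00037), the widest error of the 10 genes. The S100a4 exons share 302 bases with Gm42674, which had 0 counts in every library.

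S100a13, which takes part in the release of FGF1 by a route outside the secretory pathway, went the other way. It had 13.9, 11.5 and 13.4 CPM in healthy livers, 6.75, 7.3 and 8.74 CPM in untreated HCC and 8.64, 11.5 and 10.3 CPM with miR-22. Untreated livers were all below the healthy ones, and treated livers overlapped both groups. The fall in untreated HCC was 1.7-fold (log2 fold change −0.76 ± 0.155, SE, edgeR adjusted p = 0.0011). With total counts in place of TMM, under which the median of all genes was 0.43, it was −0.34 (adjusted p = 0.069) and no longer called. The annotated exons of S100a13 share 2563 bases with S100a1 on the opposite strand, and as the libraries were not strand-specific, reads of the shared part cannot be told apart. S100a1 was 50.8 to 58.7 CPM in healthy livers, 21.9 to 29.5 CPM in untreated HCC and 41.8 to 51.2 CPM with miR-22.

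S100a16, a broadly expressed S100 protein, was the steadiest of the 10, with 22.1, 22.4 and 22.5 CPM in healthy livers. Untreated HCC had 27.2, 27.7 and 27.6 CPM and miR-22-treated HCC had 26.3, 24.2 and 25 CPM. The groups did not overlap, yet the difference between untreated HCC and healthy livers was 1.23-fold (log2 fold change 0.3 ± 0.0868, SE, edgeR adjusted p = 0.01), under the fold threshold. With total counts in place of TMM, it was 0.72 (adjusted p = 3.9e-05), over the threshold.

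**Figure D2:**
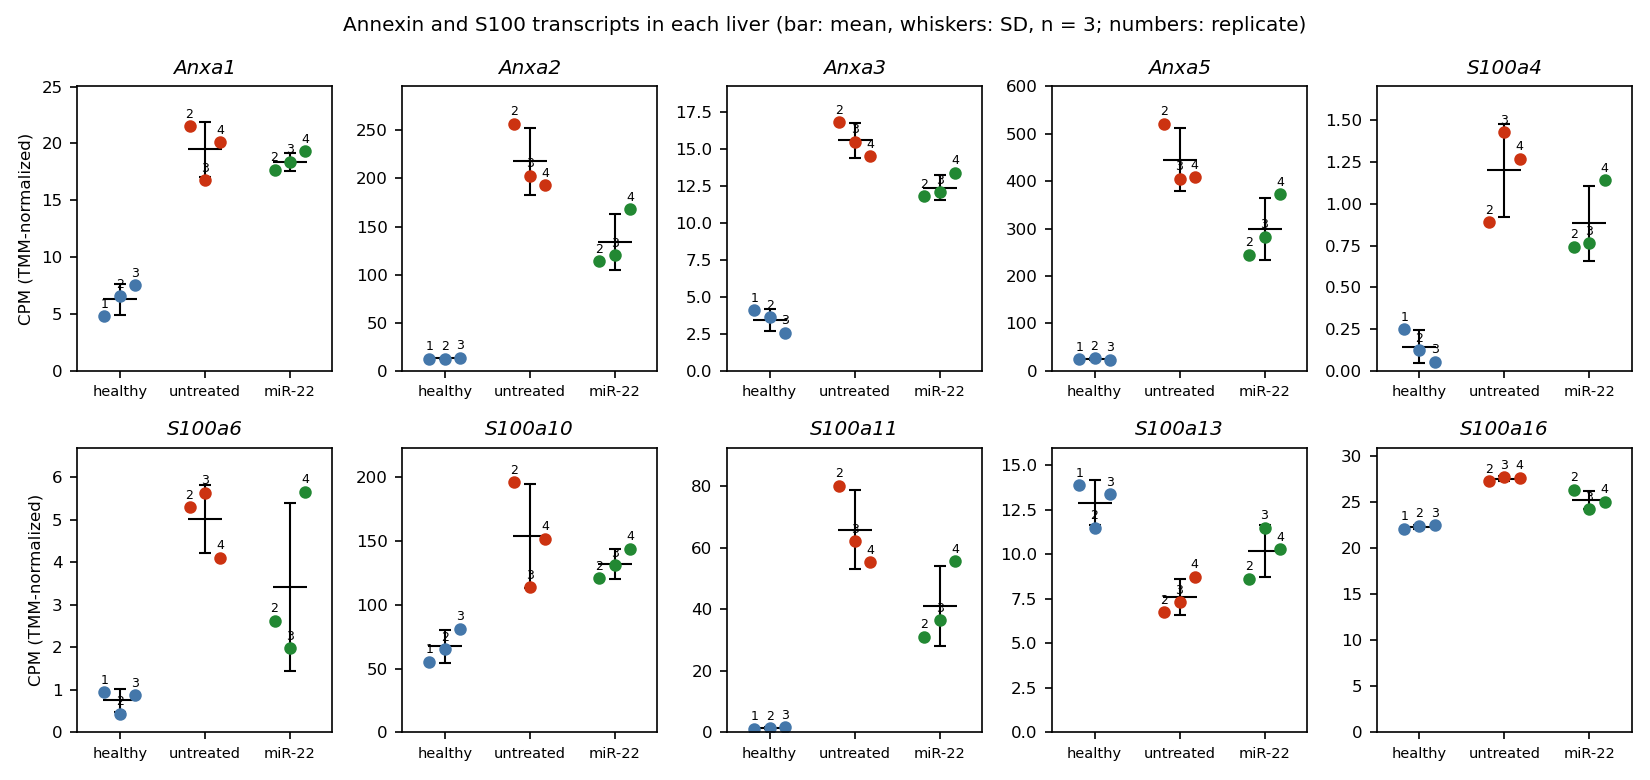
CPM after TMM scaling (vertical axis, from 0, with a scale of its own in each panel) of the 10 genes in healthy, untreated HCC and miR-22-treated HCC livers. Points are livers with their replicate number, bars are means and whiskers SD (n = 3). S100a11 rises from 1.45 CPM in healthy livers to 66 CPM in untreated HCC, while S100a13 falls from 12.9 to 7.6 CPM.

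The order of the genes by level changed between groups when CPM were divided by the length of the canonical transcript. In healthy livers S100a10 (19.7 ± 3.8 CPM per kb, SD, n = 3) and S100a16 (19.3 ± 0.202) led and did not differ beyond their spread. They were followed by Anxa5 (14.5 ± 0.878), Anxa2 (9.04 ± 0.363), Anxa1 (3.62 ± 0.782), S100a13 (2.92 ± 0.289) and Anxa3 (2.07 ± 0.467), and the lowest were S100a6 (0.967 ± 0.35), S100a11 (0.622 ± 0.109) and S100a4 (0.287 ± 0.198). Anxa1 and S100a13, and likewise S100a6 and S100a11, overlapped in their SD ranges. S100a13 has 27 coding transcripts, and over their median length of 819 bases in place of the canonical 4412 its level was 15.8 CPM per kb in healthy livers, 9.27 in untreated HCC and 12.4 in miR-22-treated HCC. Its rank then moved from 6 to 3, from 10 to 8 and from 9 to 6, so its place in the order is uncertain.

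Untreated HCC was led by Anxa5 (257 ± 38.1 CPM per kb) and Anxa2 (150 ± 24), whose SD ranges did not overlap. After them came S100a10 (45.1 ± 12), S100a11 (28.4 ± 5.53) and S100a16 (23.8 ± 0.251), with neighbouring SD ranges that overlapped. Anxa1 (11.2 ± 1.39) and Anxa3 (9.41 ± 0.714) overlapped, S100a6 (6.43 ± 1.03) lay below them, and S100a4 (2.38 ± 0.553) and S100a13 (1.72 ± 0.233) came last and overlapped. In miR-22-treated HCC the leaders were again Anxa5 (173 ± 37.7), Anxa2 (92.6 ± 20.5) and S100a10 (38.6 ± 3.38), followed by S100a16 (21.7 ± 0.883) and S100a11 (17.7 ± 5.6), which overlapped. The lower part held Anxa1 (10.6 ± 0.459), Anxa3 (7.5 ± 0.52), S100a6 (4.39 ± 2.52), S100a13 (2.3 ± 0.331) and S100a4 (1.76 ± 0.445), and the last 3 overlapped from each to the next.

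Since Anxa2 with S100a10 and Anxa1 with S100a11 act as complexes, the counts of the partners were set against each other within each liver, which does not depend on library scaling. The log2 ratio of Anxa2 to S100a10 counts was −2.12, −2.36 and −2.57 in healthy livers, 0.39, 0.83 and 0.34 in untreated HCC, and −0.09, −0.12 and 0.22 in miR-22-treated HCC. The 3 groups did not overlap, so the count balance passed from S100a10 in healthy livers to Anxa2 in untreated HCC. Differences of the mean were 2.87 for untreated HCC and 2.35 for miR-22-treated HCC against healthy livers, and −0.52 for miR-22-treated against untreated HCC. Each had an exact two-sided permutation p = 0.1, the smallest that 3 against 3 livers allow, and 0.12 after adjustment over 6 tests, so none could pass 0.05.

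The log2 ratio of Anxa1 to S100a11 counts went the opposite way, from 2.02, 2.18 and 2.14 in healthy livers to −1.9, −1.89 and −1.46 in untreated HCC. It was −0.81, −0.99 and −1.54 in miR-22-treated HCC, where replicate 4 lay among the untreated livers. The mean difference was −3.86 in untreated HCC and −3.23 in miR-22-treated HCC against healthy livers (exact permutation p = 0.1 each, adjusted 0.12), and 0.64 between miR-22-treated and untreated HCC (exact permutation p = 0.2, adjusted 0.2). Counts are not corrected for length, so a ratio shows unequal change and not the stoichiometry of a complex.

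**Figure D3:**
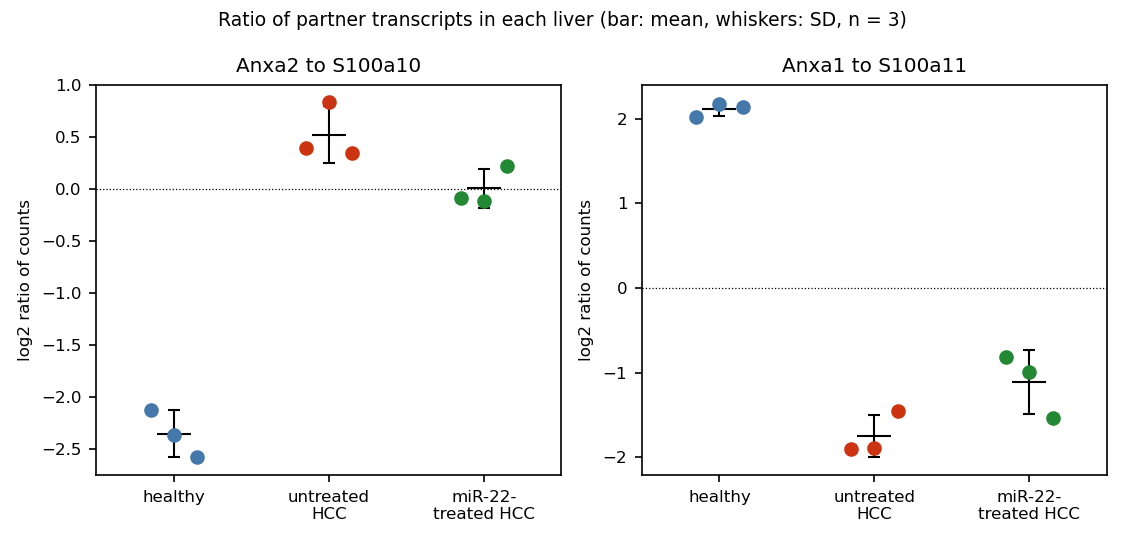
Log2 ratio of counts (vertical axis) of Anxa2 to S100a10 and of Anxa1 to S100a11 in each liver, with points for livers, bars for means and whiskers for SD (n = 3). The first ratio is −2.35 on average in healthy livers and 0.52 in untreated HCC, and the second 2.11 and −1.75.

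The second comparison asks what miR-22 changed in tumor livers. Of the 10 genes, Anxa2 and S100a11 fell and 8 were not called, while 5.47% of all tested genes were called lower and 8.32% were called higher. With glmTreat, neither fall was called (adjusted p = 0.67 for Anxa2 and 0.86 for S100a11). None of the 10 rose by edgeR, DESeq2 or limma, and at an unadjusted p under 0.05 edgeR had 1 higher (S100a13) and 4 lower. The median log2 fold change of the 10 was −0.38 (range −0.7 to 0.42), beside 0.002 over all tested genes. All 3 treated livers lay below all 3 untreated ones for Anxa2, Anxa3, Anxa5 and S100a16, 4 of the 10 genes, which was so for 19.6% of all tested genes.

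Anxa2 fell by 0.7 on the log2 scale (± 0.147, SE, 1.62-fold, edgeR adjusted p = 0.0053), from 218 ± 34.7 to 134 ± 29.6 CPM (mean ± SD, n = 3). S100a11 fell 1.6-fold (log2 fold change −0.68 ± 0.192, SE, edgeR adjusted p = 0.023), from 66 ± 12.9 to 41.1 ± 13 CPM, although the groups overlapped. Anxa5 had a log2 fold change of −0.57 ± 0.15 (SE, edgeR adjusted p = 0.016), which at 1.48-fold was under the fold threshold. It was over that threshold with DESeq2 (−0.59, adjusted p = 0.0017) and with the other library scalings.

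These calls leaned on single livers. Without untreated replicate 2, the highest untreated liver for 6 of the 10 genes, Anxa2 was at −0.56 (adjusted p = 0.028, under 1.5-fold) and S100a11 at −0.51 (adjusted p = 0.11), so that none of the 10 was called. Without treated replicate 4, the highest treated liver for 8 of the 10 genes, 4 were called lower, as Anxa5 (−0.75, adjusted p = 0.0016) and S100a6 (−1.11, adjusted p = 0.02) were added. S100a11 was also not called without untreated replicate 3 (−0.72, adjusted p = 0.053), treated replicate 2 (−0.51, adjusted p = 0.078) or treated replicate 3 (−0.6, adjusted p = 0.095), and Anxa5 was called without untreated replicate 3 or untreated replicate 4 (−0.63 each). Among all tested genes, treated replicate 4 was the highest treated liver for 36.7% and untreated replicate 2 the highest untreated liver for 29.9%. Akt1, whose counts may include reads of the injected AKT, was 797, 671 and 1100 CPM in treated replicates 2, 3 and 4 and 1610, 1670 and 1170 CPM in the untreated livers, while Nras, which may likewise include the injected NRAS, was 55.3, 53.3 and 55.1 CPM in the treated replicates and 69, 77.3 and 63.3 CPM in the untreated livers. Treated replicate 4 was thus the highest treated liver for Akt1 but not set apart for Nras, and the part of either in these levels was not tested.

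The other members were not called, and their intervals say how much change they leave room for. Anxa1 had a log2 fold change of −0.08 (95% interval −0.4 to 0.24, edgeR adjusted p = 0.75) and S100a10 of −0.22 (−0.61 to 0.16, adjusted p = 0.4). Anxa3 had −0.32 (−0.65 to 0, adjusted p = 0.14) and S100a13 had 0.42 (0.08 to 0.76, adjusted p = 0.072). S100a16, the gene with the seed match, had −0.13 (−0.32 to 0.06, adjusted p = 0.31). The intervals were widest for the scarce S100a4 (−0.43, −1.3 to 0.45, adjusted p = 0.49) and S100a6 (−0.53, −1.28 to 0.22, adjusted p = 0.3).

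The third comparison asks what remained different from healthy livers after miR-22. Of the 8 genes above the filter level in healthy livers, the 6 called higher in untreated HCC were each called higher in miR-22-treated HCC too, beside 16.9% of all tested genes, and 0 were called lower, beside 7.05%. S100a4 and S100a6 were called higher as well, with the same limit as above. The limits given above for the choice of the genes and for the values over all tested genes hold here too. With glmTreat, S100a10 was not called (adjusted p = 0.052). At an unadjusted p under 0.05 edgeR had 1 lower (S100a13), and DESeq2 and limma called none lower. Both comparisons share the healthy livers. The median log2 fold change of those 8 genes was 1.7, beside 0.022 over all tested genes, the 10 genes ranged from −0.35 to 4.82, and treated livers were all above the healthy ones for 7 of the 8, which was so for 26.6% of all tested genes. S100a11 remained 28.2-fold higher (log2 fold change 4.82, edgeR adjusted p = 1.2e-07), Anxa5 12-fold (3.58, adjusted p = 3.9e-08) and Anxa2 10.2-fold (3.36, adjusted p = 4.8e-08). Anxa3 was at 1.86 (adjusted p = 5.3e-06), Anxa1 at 1.54 (adjusted p = 1.4e-05), S100a6 at 2.19 (adjusted p = 0.0016) and S100a10 at 0.97 (adjusted p = 0.0012). The summed counts of S100a4 gave 6.46 times the healthy level, with a counting interval of 2.91 to 16.9. S100a13 (−0.35, adjusted p = 0.1) and S100a16 (0.17, adjusted p = 0.14) were not called.

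The 6 S100 genes lie in a cluster of chromosome 3 that spans bases 90416091 to 93474510 from S100a13 to S100a10 (GRCm39), in the order S100a13, S100a16, S100a4, S100a6, S100a11 and S100a10, all on the plus strand. Anxa5 lies on the same chromosome outside the cluster, at 36503072 to 36530126, and Anxa1, Anxa2 and Anxa3 on chromosomes 19, 9 and 5. The cluster holds 117 annotated genes, 15 of them with S100 symbols, of which 9 were tested. Of these 9, S100a13 and its overlapping neighbour S100a1 were called lower in untreated HCC, S100a16 was not called, and S100a4, S100a6, S100a8, S100a9, S100a11 and S100a10 were called higher, beside 18.1% and 22.7% of all tested genes called lower and higher. Among the higher ones, only S100a11 and S100a10 were above the filter level in all healthy livers, so the other calls are a description, and position along the cluster was not tested. Only 2 other genes of the cluster passed the filter. Sprr1a, a gene of the cornified envelope that passed the filter only through the HCC livers, rose by a log2 fold change of 7.98 in untreated HCC (edgeR adjusted p = 2.9e-07) and fell by 0.97 with miR-22 (adjusted p = 0.027), which glmTreat did not call (adjusted p = 0.37). Tchh, which encodes trichohyalin, was not called (−0.25, adjusted p = 0.54, in untreated HCC).

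**Figure D4:**
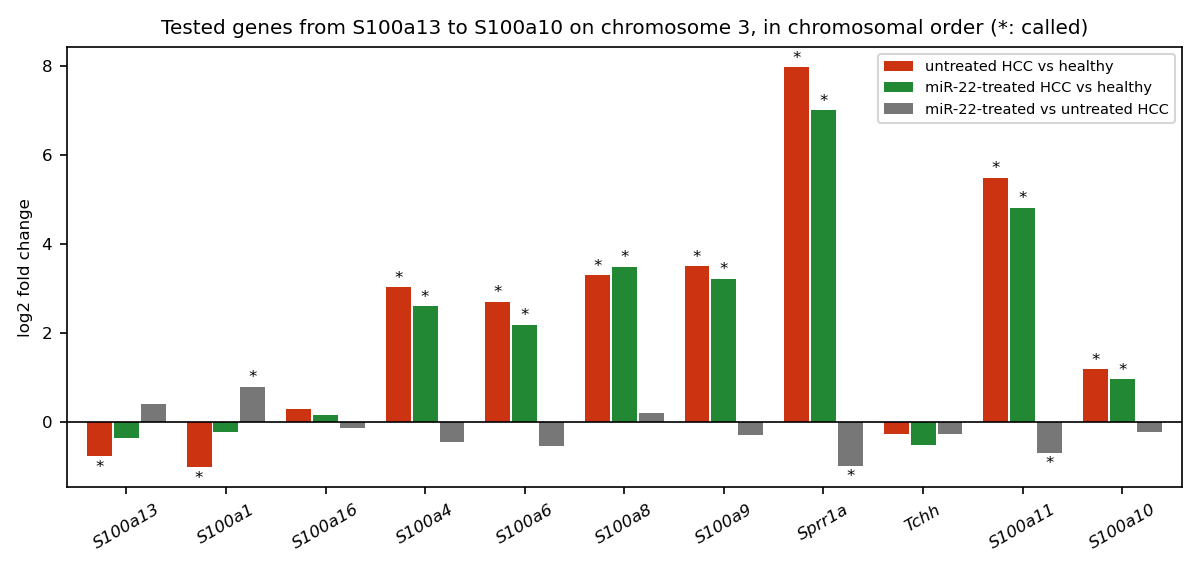
Log2 fold changes (vertical axis) of the 11 tested genes from S100a13 to S100a10 in chromosomal order, for untreated HCC against healthy livers, miR-22-treated HCC against healthy livers and miR-22-treated against untreated HCC, with asterisks on called values. In untreated HCC the values run from −1.01 for S100a1 to 7.98 for Sprr1a, with S100a11 at 5.49 and S100a10 at 1.19.

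The rest of both families moved less evenly. Of 8 other annexins, 7 were tested, and in untreated HCC 4 rose, 1 fell and 2 were not called, beside 22.7% and 18.1% of all tested genes called higher and lower. Without Anxa10, the only one below the filter level in healthy livers, 3 of 6 rose. Anxa13, an annexin of gut and kidney epithelium, rose by a log2 fold change of 4.23 ± 0.345 (SE, edgeR adjusted p = 7e-07), from 0.88, 1.01 and 0.879 CPM in healthy livers to 14.4, 24.5 and 13.3 CPM. Anxa4, which is known from secretory and ductal epithelium, rose by 1.85 (adjusted p = 1.4e-06) and Anxa7 by 0.63 (adjusted p = 0.00018). Anxa10, a gastric annexin, had 0 counts in each healthy liver and 50 counts over the untreated ones, at least 11.8-fold higher against a floor of 3 counts over the group. Anxa11 fell by 0.64 (adjusted p = 0.00082), while Anxa6 (0.01, adjusted p = 0.92) and Anxa9 (0.74, adjusted p = 0.13) were not called. With glmTreat, the rise of Anxa7 (adjusted p = 0.34) and the fall of Anxa11 (0.36) were not called either, which left 3 higher and 0 lower. With miR-22, Anxa13 fell by 0.78 (adjusted p = 0.046), although treated replicate 4 at 14.4 CPM lay among the untreated livers. DESeq2 called this too (adjusted p = 0.021), but limma (0.055) and glmTreat (0.69) did not. Anxa4 had −0.57 (adjusted p = 0.021), under the fold threshold. DESeq2 called 2 of the 7 lower with miR-22, and limma and glmTreat called 0. Against healthy livers, 4 of these 7 were called higher in miR-22-treated HCC (16.9% of all tested genes) and none lower, by edgeR, DESeq2 or limma, with 1 lower at an unadjusted p under 0.05. Anxa7 (0.62) was 1 of the 4 and was not called by glmTreat (adjusted p = 0.64). Without Anxa10, 3 of 6 were called higher.

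Only 4 of the 11 other S100 genes were expressed enough to test, and 3 were called higher and 1 lower in untreated HCC, beside 22.7% and 18.1% of all tested genes. The 3 higher ones, S100a8, S100a9 and S100b, passed the filter only through the HCC livers, which favors a difference, so their values are a description. S100a8, which forms calprotectin with S100a9 in neutrophils, had 0.377, 0 and 0.33 CPM in healthy livers and 2.34, 3.04 and 1.87 CPM in untreated HCC. S100a9 had 1.26, 0.252 and 0.11 CPM in healthy livers and 6.7, 6.63 and 4.86 CPM in untreated HCC. S100b, known from glia and other neural crest derivatives, had 2 counts over the healthy livers and 67 over the untreated ones, a ratio of 23.8 with a counting interval of 6.33 to 200. S100a1, best known from heart muscle, fell by 1.01 (adjusted p = 1.7e-05). It rose by 0.8 with miR-22 (adjusted p = 0.00091), as the only called gene of the 4, beside 8.32% of all tested genes called higher, and all 3 treated livers were above the untreated ones. With glmTreat this rise was not called (adjusted p = 0.21).

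Partners and receptors of these proteins were followed as a list of 23 genes, of which 18 were tested, with 5 higher, 3 lower and 10 not called in untreated HCC. These shares were near those of all tested genes, 22.7% higher and 18.1% lower, so the count is no result about the list. Plat, the tissue plasminogen activator, rose from 0.943, 0.819 and 0.824 CPM to 21.3, 20.2 and 12 CPM (log2 fold change 4.36, edgeR adjusted p = 1.4e-07). The urokinase gene Plau (2.11, adjusted p = 0.00019) and its receptor gene Plaur (3.2, adjusted p = 4.3e-06, tested only through the HCC livers) rose, while Plg, the plasminogen made by hepatocytes, fell by 1.25 (adjusted p = 4.3e-05). With miR-22, Plat (−0.93, adjusted p = 0.0089) and Plaur (−0.84, adjusted p = 0.038) fell, Plg rose (0.76, adjusted p = 0.0067) and Plau was not called (−0.73, adjusted p = 0.1). DESeq2 called the falls of Plat and Plaur too, limma that of Plat (adjusted p = 0.018) but not that of Plaur (0.077), and glmTreat neither (0.27 and 0.57), nor did glmTreat call the rise of Plg (0.51).

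Ahnak, a giant scaffold that binds the Anxa2 and S100a10 complex, rose by 1.16 (edgeR adjusted p = 6.7e-06), and Myh9, the myosin bound by S100a4, by 1.38 (adjusted p = 8.3e-07). Fgf1, the cargo of S100a13, had 165, 163 and 161 CPM in healthy livers, 20.2, 20.9 and 31.7 CPM in untreated HCC and 61.4, 85.5 and 79.7 CPM with miR-22. It thus fell by 2.75 in untreated HCC (adjusted p = 8.6e-08) and rose by 1.63 with miR-22 (adjusted p = 9e-05), with no overlap between groups. Syt1, which joins Fgf1 and S100a13 in the release complex, fell by 0.84 in untreated HCC (adjusted p = 0.016), which glmTreat did not call (adjusted p = 0.18). The formyl peptide receptor genes Fpr1 (−0.52, adjusted p = 0.1) and Fpr2 (0.59, adjusted p = 0.3), Tlr4 (−0.14, adjusted p = 0.61) and Cacybp (0.13, adjusted p = 0.31) were not called in untreated HCC. With miR-22, 2 of the 18 rose and 2 fell, beside 8.32% and 5.47% of all tested genes, and with glmTreat Fgf1 alone was called (adjusted p = 0.0011). Against healthy livers, 6 were higher and 1 lower in miR-22-treated HCC, beside 16.9% and 7.05%, and glmTreat did not call Plau (adjusted p = 0.057) and Pla2g4a (0.19) of the 6. Of the 16 partners above the filter level in all healthy livers, 5 were higher and 1 lower.

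Markers of several cell types moved with the 10 genes, and their part in the result was not tested. The summed level of 7 ductal genes was 48.8 to 60.5 CPM in healthy livers, 3350 to 6260 CPM in untreated HCC and 1580 to 2730 CPM with miR-22, and 6 of the 7 were higher in untreated HCC (22.7% of all tested genes) while 5 of the 7 were lower with miR-22 (5.47% of all). Of the 6, Krt7 and Cldn4 passed the filter only through the HCC livers, Cldn4 through the untreated ones alone. Without them, 4 of 5 were higher in untreated HCC and 4 of 5 lower with miR-22. Most of the ductal sum in HCC was Spp1, the osteopontin gene, at 4550, 6080 and 3240 CPM in the untreated livers. Without Spp1 the other 6 genes summed to 25.1 to 28.5 CPM in healthy livers, 115 to 179 CPM in untreated HCC and 55.4 to 83.6 CPM with miR-22, and Krt19 was not called (0.89, adjusted p = 0.15). For 8 stellate and myofibroblast genes it was 270 to 302, 900 to 1040 and 686 to 828 CPM, with 5 of 8 higher and 2 lower in untreated HCC, beside 22.7% and 18.1% of all tested genes, and 2 higher and 2 lower with miR-22, beside 8.32% and 5.47%. The genes moved apart, since Lrat and Dcn were lower in untreated HCC (−1.5 and −0.61) and higher with miR-22 (1.1 and 0.71), while Col1a1 and Col1a2 went the other way. All 8 hepatocyte genes were lower in untreated HCC (18.1% of all tested genes), and 5 were higher with miR-22 (8.32% of all). The summed level of the 10 annexin and S100 genes was 140 to 167, 858 to 1130 and 579 to 815 CPM.

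Immune markers moved less or were scarce. For 8 macrophage genes the sums overlapped between healthy livers (396 to 506 CPM) and untreated HCC (405 to 473 CPM) and were 490 to 517 CPM with miR-22, and 2 of the 8 were higher in untreated HCC, near the 22.7% of all tested genes. Of 8 neutrophil genes only S100a8 and S100a9 were tested, and the list summed to 0.315 to 1.7, 7.4 to 10.2 and 7.59 to 12.9 CPM. Most of that sum was S100a8 and S100a9 themselves, at 2.42 and 6.06 CPM on average in untreated HCC. The 8 endothelial genes summed to 432 to 532, 269 to 349 and 362 to 460 CPM, with 4 of the 8 lower in untreated HCC, beside 18.1% of all tested genes. Sums for T and NK cells (6.24 to 8.3, 6.61 to 7.93 and 6.19 to 9.51 CPM) and for B and plasma cells (2.64 to 6.1, 4.73 to 9.13 and 4.46 to 8.37 CPM) overlapped between all groups. No marker of these lists was at 0 in all libraries.

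**Figure D5:**
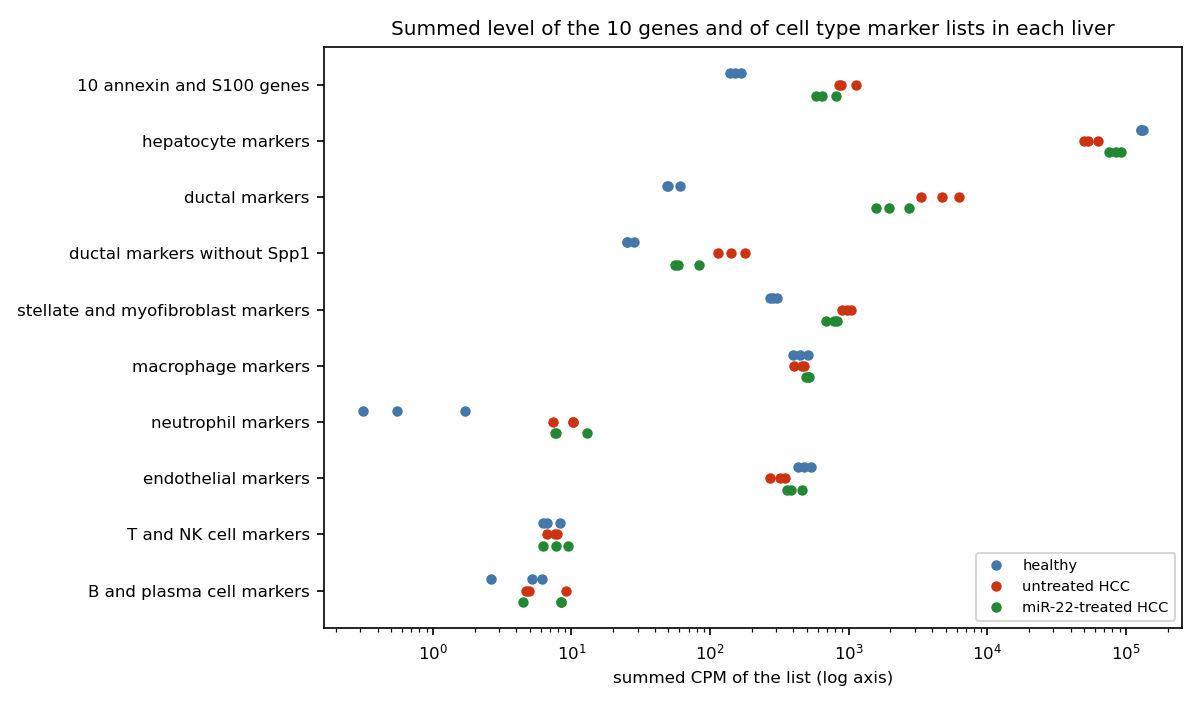
Summed CPM (horizontal log axis) of the 10 annexin and S100 genes and of 8 lists of cell type markers in each liver, the ductal list also without Spp1, with points for healthy, untreated HCC and miR-22-treated HCC livers. The ductal sum without Spp1 lies at 25.1 to 28.5 CPM in healthy, 115 to 179 CPM in untreated and 55.4 to 83.6 CPM in treated livers. Both this sum and that of the stellate and myofibroblast genes have the same order of groups as the sum of the 10 genes, whereas the T and NK cell sums overlap.

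Across the 9 livers the 10 genes shared a pattern to different degrees, given here as a description without a test, since the 9 points share 3 groups. Pearson's r between a gene and the mean of the 10, each as scaled log2 CPM, was 0.997 for Anxa2 and S100a11 and 0.996 for Anxa5, but 0.932 for S100a10, 0.913 for S100a16 and −0.796 for S100a13. Each of the 10 is itself part of that mean, which raises its r, whereas genes outside the lists are not. Outside the lists, the 5 genes closest to that mean were Lgals1 (r = 0.999), Slpi, Spink1, Gprc5b and Postn (r = 0.998 each). Lgals1, the gene of galectin-1, had 5.09 ± 0.341 CPM in healthy livers, 78.9 ± 8.43 CPM in untreated HCC and 56.9 ± 17.8 CPM in miR-22-treated HCC (SD, n = 3). Spink1, a protease inhibitor gene, had 0 CPM in the healthy livers and 10.4 ± 1.33 CPM in untreated HCC, and Postn, the matrix gene periostin, had 7.65 ± 0.71 and 29 ± 0.472 CPM.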

How the data were processed

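RNA libraries of 9 livers were non-directional and read as pairs. Per the methods, the authors checked reads with FastQC 0.11.7, quantified them with Salmon on GRCm39 and imported them with tximport. The deposited counts per gene are whole numbers, neither normalized nor filtered, and were used for every result. The authors' normalized version (DESeq2 1.18) was not used.

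Counts were fitted in R 4.3.3 with edgeR 4.0.16 (TMM, filterByExpr, quasi-likelihood test, 3 groups in 1 fit, two-sided), and the fit was tested on simulated data. Alternatives were DESeq2 1.42.0, limma 3.58.1, glmTreat, other scalings and filters, the replicate number as a block, and each liver left out. Figures used Python 3.11.15 and matplotlib 3.10.9. Of the gene identifiers, 51731 matched GENCODE vM39, which gave positions, lengths and 3′ UTRs. Proteins were not analysed here.

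All 10 genes are named, with tested genes of the 3 related lists, the tested genes of the chromosome 3 cluster and the 5 genes most like the mean. Members and lists were chosen with earlier results of these data known. Livers of a group are replicates by label only, so p-values measure the spread between these samples. No 2 libraries of the same group agreed within sampling noise. The counts over genes above the filter level in healthy livers, the ductal sum without Spp1, the other tools for Anxa13, Plat and Plaur, and glmTreat for single genes of the related lists were chosen after seeing the data.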

Additional observations from a re-analysis of the deposited data

How the results depend on the processing

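Of 594 values of the 10 genes under alternatives, 572 kept their direction and side of the threshold, 11 were no longer called, 11 became called and none changed sign. With glmTreat, Anxa2 (adjusted p = 0.67) and S100a11 (0.86) with miR-22, S100a13 (0.14) in untreated HCC and S100a10 (0.052) in miR-22-treated HCC against healthy livers were no longer called. With miR-22 against untreated HCC, 2 of the 10 genes were called, but 0 with glmTreat and 0 to 4 with a liver left out. Genes called over the whole table in that comparison were 2167, but 3777 with no fold threshold, 468 with glmTreat and 1433 to 2660 with a liver left out. Between miR-22-treated HCC and healthy livers they were 3772, but 5732 with no fold threshold and 2010 with glmTreat. The cause was not tested. Without Alb, the share of counts of the 10 genes in healthy livers was 0.0146%.

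With total counts in place of TMM, the median log2 fold change of all genes was 0.43, −0.23 and 0.21 in untreated HCC, with miR-22 and in miR-22-treated HCC against healthy livers, a shift of 0.42, −0.24 and 0.19 from TMM. The percent of calls that were higher went from 55.7, 60.4 and 70.6 to 80, 27.9 and 85.2. Replicate numbers did not pair the livers, since the deviations of same-numbered untreated and treated livers correlated at −0.14, −0.19 and −0.28. With the replicate number as a block, 1 of the 10 genes was called with miR-22, as S100a11 (−0.71, adjusted p = 0.061) was lost. The block changed no other call of the 10 genes. Counts of 1 to 34 per liver limit S100a4.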
